A study of Mus musculus with 30 samples.

Results

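The genes described here encode the machinery that carries proteins into mitochondria: the translocase of the outer membrane (TOM), its sorting and assembly partner Samm50, the presequence translocase of the inner membrane (TIM23) with its ATP-driven motor, the small TIM chaperones of the intermembrane space, and the carrier translocase TIM22. They were chosen by symbol: Timm or Tomm followed by a digit, or Samm50, Pam16, Dnajc19, Grpel1, Grpel2 or Hspa9, each from probe sets naming exactly 1 gene. The rule found 61 probe sets of 28 genes, among 13250 genes tested, and each gene was represented by its probe set with the highest mean log2 value over all 30 arrays. All 28 passed the filter on low values. Dnajc19 has no value here because its 3 probe sets also name a pseudogene.

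The cells were of the mouse R-1 line: embryonic stem cells (ESC) grown with LIF, a cytokine under which they self-renew, and embryoid bodies (EB), the aggregates that such cells form when they differentiate without LIF, taken at day 5. Cycloheximide (150 ug/ml for 15 min), which freezes ribosomes on mRNA, was given to both states before harvest, and the labels name no other genotype or treatment. Per the labels, cytoplasmic lysate was run on a sucrose gradient, which separates mRNAs by how many ribosomes they carry, and fractions were combined into 4 pools. Each state had 3 biological replicates, called cultures here, and each culture gave 1 array of total RNA and 1 array of each pool, from 2.5 ug of RNA per array. The labels do not say from which end of the gradient pool 1 came, so pools are named by number only. Both states come from 1 cell line, and the cells of EB are a mixture.

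Most mitochondrial proteins are made on cytosolic ribosomes and imported. Receptors on the outer surface (Tomm20, Tomm22, Tomm70a) hand precursors to the Tomm40 channel. Precursors with a cleavable presequence go on through TIM23 and are pulled in by the Hspa9 motor, carrier proteins of the inner membrane are escorted by the small TIMs to TIM22, and beta-barrel proteins of the outer membrane are inserted with Samm50. Embryonic stem cells are known for small, immature mitochondria and for a strong reliance on glycolysis.

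The deposited values are log2 signals. Judged from the values, arrays were set to a common level of the Bacillus spike-in RNAs: the mean of these 24 probe sets lay between 9.43 and 9.78 on every array, a scaling that the labels do not describe. For the tests 32 was added to each linear signal before log2 was taken again. Mean linear signal ranged from 72.39 to 577.8 over the arrays, and in total RNA from 151.0 to 156.4 in ESC and from 302.1 to 376.4 in EB. Counts of called genes are therefore given on the deposited scale and also relative to all genes, that is after quantile normalization, which gives every array of a fit the same distribution. Hybridisation controls, RNAs added at hybridisation, had means between 9.6 and 13.91 (log2) over the arrays, from 11.03 to 11.54 in ESC total RNA and from 11.68 to 12.51 in EB total RNA. Replicate arrays correlated across genes at 0.914 or higher, the lowest within EB pool 2, where replicate 3 stood apart. Pool arrays had a floor, at which Timm8a2 lay on 5 of 24 arrays and Tomm20l on 10 of 24; the other 26 genes never lay at it. In total RNA, none of 7 pluripotency markers was called lower in EB on either scale, and Nanog was higher by 0.53 relative to all genes. The endoderm markers were called higher in EB for 5 of 7 tested on the deposited scale and 4 of 7 relative to all genes. Of all genes, 78.9% were called higher and 0.325% lower on the deposited scale, so neither marker result stood out there. Relative to all genes the shares were 6.55% and 6.11%. Of 4 mesoderm markers tested, 2 were called higher with deposited values and 1 relative to all genes. Of 4 neural markers, 2 were higher and 1 lower with deposited values, and 2 were lower relative to all genes. Of 7 fibroblast feeder markers, 2 passed the filter and neither was called. A difference between states in bulk samples cannot tell fewer cells of a type from less RNA per cell.

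RefSeq promoter windows (build GRCm38.p6, 250 bases before to 50 after the annotated start) were found for 23 of the 28 genes. The ETS-type core CCGGAAG, read on both strands with overlapping matches counted, is the kind of element bound by GABP, a known regulator of nuclear genes for mitochondria; it stood in the windows of 10 of 23 genes, against 8.86% of 32851 windows and 12.9% of 17491 coding genes. The 7-letter core of the NRF1 motif, GCATGCG, stood in 2 of 23 (Grpel1 and Timm13), against 4.95% of coding genes. No window had, at the annotated start, a C followed by at least 4 more pyrimidines, the start of a TOP-like mRNA, against 2.67% of coding genes. The 150 bases before the start are shown for Tomm22 and Tomm70a, outer-membrane receptors with matches (the receptor Tomm20 has none). They are also shown for the small TIM Timm8b, whose position over the pools differed most between states relative to all genes, though not on the deposited scale. The last is Samm50, which lay farthest toward pools 3 and 4, and CCGGAAG or its reverse complement is in capitals:
Tomm22 (chr15:79670718-79670867, plus strand): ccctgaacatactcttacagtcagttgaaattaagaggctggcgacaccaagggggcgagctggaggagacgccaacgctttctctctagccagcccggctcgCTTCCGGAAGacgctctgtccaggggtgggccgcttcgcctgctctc
Tomm70a (chr16:57121564-57121713, plus strand): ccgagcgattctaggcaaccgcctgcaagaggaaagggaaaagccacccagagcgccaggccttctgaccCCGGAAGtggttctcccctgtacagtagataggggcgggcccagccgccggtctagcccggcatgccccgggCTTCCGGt
Timm8b (chr9:50603751-50603900, plus strand): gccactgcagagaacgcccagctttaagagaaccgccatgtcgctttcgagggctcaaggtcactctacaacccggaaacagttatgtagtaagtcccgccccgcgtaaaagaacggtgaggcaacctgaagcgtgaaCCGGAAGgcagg
Samm50 (chr15:84192090-84192239, plus strand): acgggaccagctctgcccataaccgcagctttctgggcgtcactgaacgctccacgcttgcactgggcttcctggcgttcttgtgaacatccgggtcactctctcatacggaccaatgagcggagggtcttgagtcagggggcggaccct
In Tomm22 the capitals are a pair of matches that overlap on opposite strands. Samm50 has no match in its window. A match is a run of letters, not a measured binding site.

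Total RNA was compared between EB and ESC to ask how transcript abundance differed. On the deposited scale 26 of the 28 genes were higher in EB, by a median of 0.98 (log2), but 78.9% of all genes were called higher and 0.325% lower, and their median was 0.96, so the import genes stood near the background. With the arrays rescaled on the hybridisation controls, 4 of the 28 were called higher, against 17.5% of all genes. Relative to all genes none of the 28 was called in limma's test with Benjamini-Hochberg adjustment over 13250 genes, against 6.55% of all genes called higher and 6.11% lower. At an unadjusted p under 0.05 there were 2 higher and 8 lower. The median over the 28 was -0.15 against 0 over all genes, and 22 lay below 0.

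Among the TOM genes, Tomm20, the presequence receptor, read 13.32, 12.97 and 13.12 in ESC and 14.19, 13.88 and 13.89 in EB (log2, deposited scale). Tomm22, the central receptor, read 9.09, 9.12 and 9.13 in ESC and 10.23, 10.02 and 10.27 in EB. Every EB value of both genes lay above every ESC value, the pattern of 25 of the 28 genes on this scale, where 77.9% of all genes had no overlap between states. Tomm40, the channel, read 8.63, 8.83 and 8.72 in ESC and 10.38, 9.93 and 10.37 in EB, and so rose from 8.73 ± 0.10 to 10.22 ± 0.26 (SD, n = 3 each; limma adjusted p = 3.77e-05). Tomm70a, the receptor for carrier proteins, read 9.54, 9.65 and 9.42 against 10.3, 10.24 and 10.57, a rise of 0.83 ± 0.16 (SE). Relative to all genes these differences were 0.24 ± 0.12 for Tomm40 and -0.37 ± 0.13 for Tomm70a, neither called. Tomm7, a small subunit that tunes the stability of the TOM complex, had the lowest value of all 28 on that scale: it read 10.19, 10.38 and 10.24 in ESC and 9.89, 9.81 and 9.42 in EB, a difference of -0.56 ± 0.15 (adjusted p = 0.0555). Its 2 groups did not overlap, the pattern of 15 of the 28 genes and 36.1% of all genes on that scale. Samm50, the outer-membrane insertase, read 10.39, 10.55 and 10.85 in ESC and 11.42, 11.22 and 11.88 in EB on the deposited scale, a rise of 0.91 ± 0.20. Its values relative to all genes overlapped between the states. Tomm20l, a homologue of Tomm20, was not called (0.26 ± 0.33).

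Within the TIM23 complex, Timm23, the channel subunit, read 11.6, 11.58 and 11.59 in ESC and 12.59, 12.39 and 12.68 in EB on the deposited scale. Timm17a, its partner in the channel, read 9.67, 9.81 and 9.57 against 11.26, 10.97 and 11.32. Timm50, the receptor that faces the intermembrane space, read 7.72, 7.85 and 7.85 against 9.35, 9.14 and 9.47. All 3 were higher in each EB culture than in any ESC culture, on a scale where 77.9% of all genes had no overlap between states. Relative to all genes Timm23 differed by -0.115 and Timm50 by 0.222, neither called. Timm17a was also the second highest of the 28 relative to all genes (0.34 ± 0.11, adjusted p = 0.082), whereas Timm21, which links TIM23 to TOM, was the second lowest: it read 8.29, 7.83 and 8.3 in ESC and 7.64, 7.42 and 7.72 in EB (-0.55 ± 0.17, adjusted p = 0.0721). The paralogue Timm17b differed by -0.22 ± 0.11 relative to all genes and was not called. In the motor, Grpel1, the nucleotide-exchange factor of Hspa9, had the highest value of the 28 on both scales: it read 8.07, 8.22 and 8.39 in ESC and 9.98, 9.63 and 10.04 in EB, a rise of 1.66 ± 0.17 on the deposited scale, and the difference relative to all genes was 0.38 ± 0.13 (adjusted p = 0.104). Hspa9, the mitochondrial Hsp70, read 10.04, 10.05 and 10.08 against 10.99, 10.87 and 10.95, and Timm44, which tethers it to the channel, 9.35, 9.56 and 9.31 against 10.71, 10.46 and 10.68. Hspa9 differed by -0.27 and Timm44 by -0.01 relative to all genes, neither called.

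Small TIMs are chaperones that ferry hydrophobic precursors across the intermembrane space. Of the 7, 6 rose on the deposited scale, the exception being Timm8a2 (0.49 ± 0.23), and relative to all genes 6 lay below 0 with a median of -0.35. Timm9, which forms a hexamer with Timm10, read 7.34, 7.54 and 7.35 in ESC and 7.07, 6.67 and 6.93 in EB relative to all genes, a difference of -0.52 ± 0.14 (adjusted p = 0.0551). Timm10 read 9.58, 9.61 and 9.72 against 9.36, 9.14 and 9.36. Timm8a1, which pairs with Timm13, read 10.9, 10.99 and 10.72 against 10.55, 10.45 and 10.52, and Timm8b 9.36, 9.42 and 9.43 against 9.03, 8.99 and 9.05. In each of these 4 genes the states did not overlap and EB was lower, where 36.1% of all genes had no overlap. None of the 4 was called. Timm13, the small TIM that did not lie below 0, read 10.33, 10.39 and 10.33 against 10.4, 10.37 and 10.4. Timm10b and Timm8a2 lay below 0 but overlapped between states. Timm22, the channel of the carrier translocase, read 7.63, 7.58 and 7.37 in ESC and 9.04, 8.26 and 8.95 in EB on the deposited scale, and its difference relative to all genes was -0.04 ± 0.17. These total RNA differences depended on the model: with a prior variance that follows intensity, 2 genes were called higher relative to all genes (Grpel1 and Timm17a) and 8 lower (Tomm7, Timm8a1, Timm8b, Tomm70a, Timm10, Hspa9, Timm21 and Timm9), against 11.3% and 10.5% of all genes. Median centring in place of quantile normalization called 4 higher and 2 lower, against 12.6% and 20.8% of all genes. In the left-out-culture fits relative to all genes, at most 1 of the 28 was called lower (without ESC replicate 2) and none higher.

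**Figure D1:**
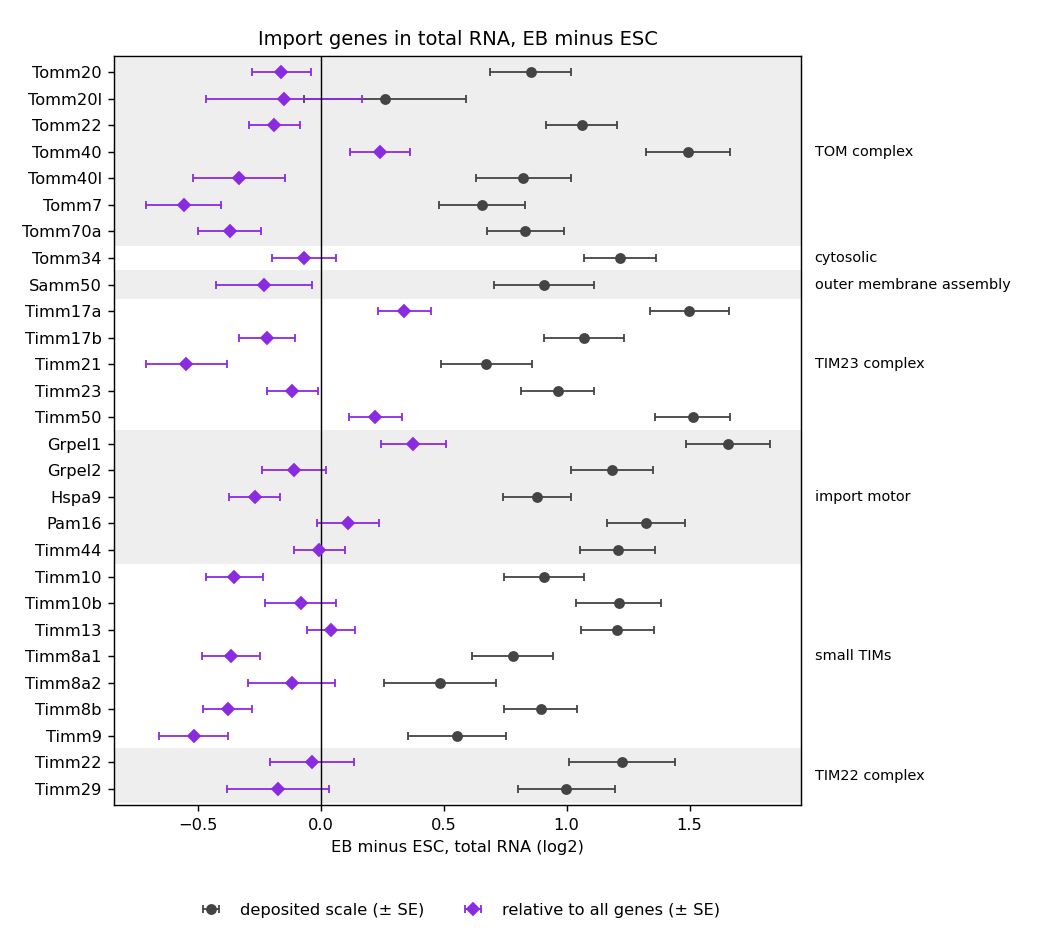
EB minus ESC in total RNA for each of the 28 import genes, grouped by role, in log2 units with SE (n = 3 cultures per state): circles are the deposited scale, diamonds the values relative to all genes. Circles lie between 0.26 and 1.66, and diamonds between -0.56 and 0.38, with 22 of 28 below 0.

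The position of an mRNA over the gradient was summarised per culture as the pool ratio, where the mean log2 level in pools 1 and 2 was subtracted from the mean in pools 3 and 4. It compares array signals, each from the same mass of RNA, not amounts of mRNA. On the deposited scale, limma gave all genes the same SE in these fits, 0.168 within a state and 0.237 for a difference between states, so those p-values take no account of how much a single gene varied. In ESC 17 of the 28 import genes had a ratio called below 0 and 2 above it on the deposited scale, with a median of -0.56, against 18.4% of all genes below and 6.97% above and a median of -0.14; without ESC replicate 1, 11 were below, and with the arrays rescaled on the hybridisation controls 0 were below and 9 above, against 0.174% and 50.8% of all genes. After normalization to all genes 13 were below and 2 above, with a median of -0.35, against 16.1% and 16.5% of all genes. With median centring 17 were below and 2 above, against 14.4% and 11.8%. Called above 0 on both scales were Samm50 and Tomm40, whereas Tomm40l, the homologue of Tomm40, was at -0.56 on the deposited scale (called) and at -0.47 relative to all genes (not called).

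Samm50 had ratios of 1.37, 1.78 and 1.43 in the ESC cultures (relative to all genes), a mean of 1.53 ± 0.12 (SE; limma adjusted p = 5.72e-06). Tomm40 had 1.29, 1.09 and 0.9, a mean of 1.09 ± 0.11 (adjusted p = 2.67e-05). The ratios of the remaining 26 genes were lower, with Tomm70a next at 0.12 ± 0.11 and not called. At the other end stood Timm8a1, with -1.31, -1.34 and -1.07, Timm8b, with -1.35, -0.84 and -1.25, and Tomm7, with -1.26, -0.77 and -1.13. All 7 small TIMs lay below 0 and 5 were called (adjusted p from 1.21e-05 for Timm8a1 to 0.00142 for Timm10b), the other two being Timm10 (-0.34) and Timm8a2 (-0.19). Tomm22 (-0.78 ± 0.13), Pam16, a regulator of the motor (-0.69 ± 0.11), and Timm21 (-0.71 ± 0.12) were called too. Those near 0 were Timm44 at 0.04, Grpel1 at 0.07, Hspa9 at -0.01, Tomm20 at -0.08, Timm29, a partner of Timm22, at 0.10, and Tomm34, a cytosolic cochaperone of precursors, at 0.07. The TOM genes thus spanned both ends, from Tomm40 to Tomm7.

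In EB, 19 of the 28 ratios relative to all genes were called below 0 and 4 above, with a median of -0.66, against 19.2% and 23.2% of all genes; with median centring 17 were below and 5 above, against 40.3% and 27.4%. On the deposited scale 7 were below and 11 above, with a median of 0.09 where all genes had 0.56, and 3.99% and 60.2% of all genes were called; 4 were below without EB replicate 1, 6 were above without EB replicate 2, and 2 were below after rescaling on the hybridisation controls, against 0.808% of all genes. The 4 above 0 relative to all genes were Samm50, with 1.25, 1.45 and 1.6, Tomm40, with 0.59, 0.72 and 0.67, Tomm70a, with 0.33, 0.55 and 0.56, and Tomm34, with 0.51, 0.37 and 0.33. Lowest were Timm8b (-2.67 ± 0.14, adjusted p = 9.48e-08), Timm8a1 (-1.80 ± 0.11, adjusted p = 2.54e-07) and Tomm7 (-1.67 ± 0.13, adjusted p = 9.52e-07). All 5 TIM23 genes and 6 of 7 small TIMs were called below 0. Timm9 (-0.21 ± 0.12) was the small TIM that was not. With the mean of all probe sets of a gene, Timm44 turned from -0.43 to 0.04.

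**Figure D2:**
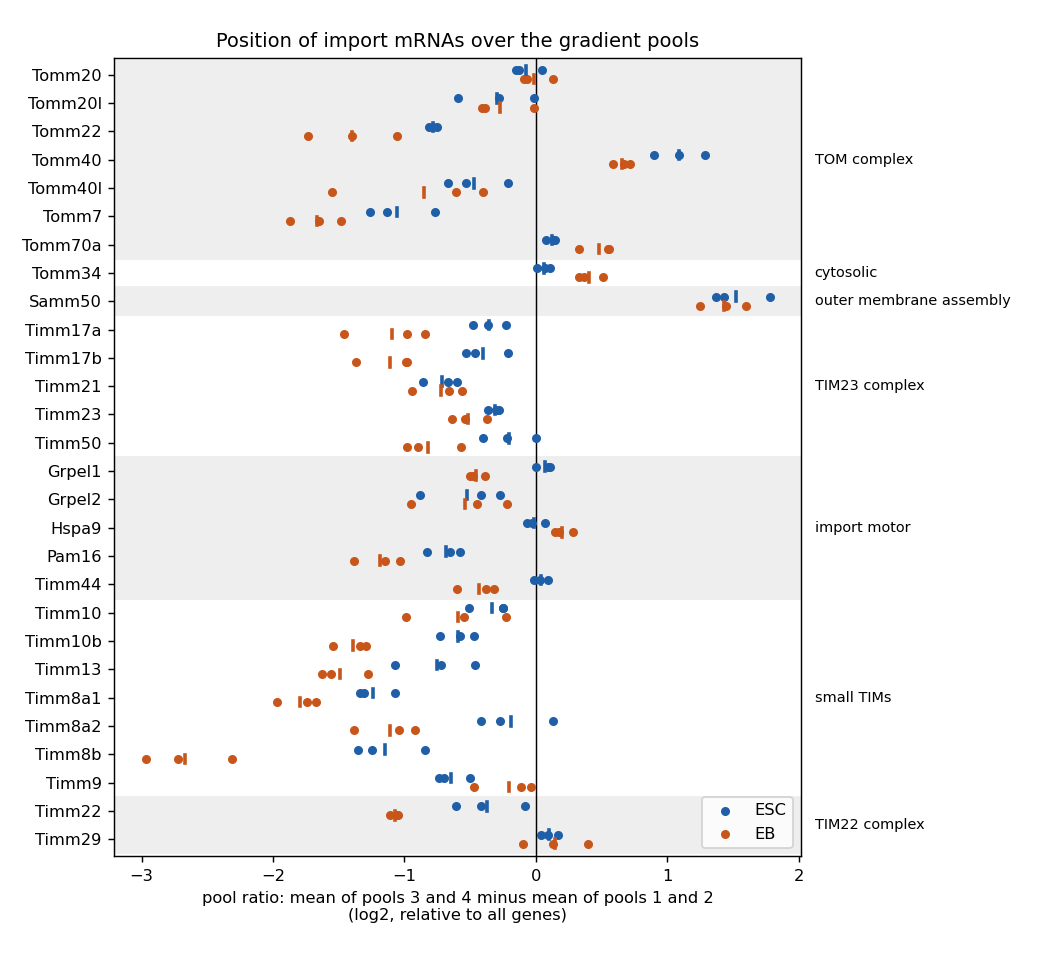
Pool ratio of each import gene in every culture, relative to all genes (log2), with ESC in blue above and EB in orange below each row; points are cultures and bars are means of 3. Samm50 and Tomm40 lie to the right in both states, and the EB points of Timm8b, from -2.97 to -2.31, lie left of all others.

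The state difference of the pool ratio asks which mRNAs shifted over the gradient between ESC and EB. On the deposited scale 19 of the 28 import genes shifted toward pools 3 and 4 in EB and none the other way (at an unadjusted p under 0.05, 21 and 0); the median was 0.69 against 0.73 over all genes, of which 64.4% were called higher and 0.0755% lower. Once the arrays were rescaled on the hybridisation controls, none of the 28 and no other gene was called. Without that rescaling, only Timm8a2 (-0.42) and Timm8b (-0.40) of the 28 lay below 0, and neither was called. Relative to all genes 11 of 28 were called lower and none higher (at an unadjusted p under 0.05, 15 and 3), against 5.15% and 4.18% of all genes, and the median was -0.45 against 0.01. On the deposited scale these 11 lay between -0.42 and 0.69, all below the median of all genes; 4 of them were called higher there and 7 were not called. In each of the 11 genes the 3 EB ratios lay below the 3 ESC ratios, and 20 of the 28 genes had no overlap in either direction, against 30.9% of all genes.

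The 11 comprised 5 small TIMs, 3 TIM23 genes, and Timm22, Tomm7 and Grpel1. Timm8b went from -1.35, -0.84 and -1.25 in ESC to -2.97, -2.31 and -2.72 in EB, a difference of -1.52 ± 0.20 (limma adjusted p = 0.00344). It was called in each fit that left out 1 culture. Timm8a2, a paralogue of Timm8a1, went from -0.27, 0.13 and -0.42 to -0.92, -1.04 and -1.38 (-0.93 ± 0.19, adjusted p = 0.013), though it is the faint gene at the floor on 5 pool arrays. Timm10b, found with Timm22 at the inner membrane, went from -0.58, -0.47 and -0.73 to -1.54, -1.29 and -1.34 (-0.80 ± 0.16, adjusted p = 0.0114). These 3 small TIMs had the 3 lowest differences of the 28. Timm13 went from -0.46, -0.72 and -1.07 to -1.63, -1.28 and -1.56 (-0.74 ± 0.19), and Timm8a1 from -1.31, -1.34 and -1.07 to -1.97, -1.67 and -1.74 (-0.55 ± 0.16, adjusted p = 0.0487). Timm10 (-0.51, -0.25 and -0.25 in ESC, -0.99, -0.23 and -0.55 in EB) and Timm9 (0.44 ± 0.17, adjusted p = 0.115), which together make the other hexamer, were not called, and Timm9 had the highest value of the 28: its ratios were -0.5, -0.7 and -0.74 in ESC and -0.47, -0.11 and -0.04 in EB.

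Of the TIM23 genes, Timm17a went from -0.23, -0.48 and -0.36 to -1.46, -0.98 and -0.84 (-0.74 ± 0.18, adjusted p = 0.0287). Timm17b went from -0.46, -0.21 and -0.53 to -1.37, -0.98 and -0.99 (-0.71 ± 0.17, adjusted p = 0.0238), and Timm50 from 0, -0.22 and -0.4 to -0.9, -0.98 and -0.57 (-0.61 ± 0.17, adjusted p = 0.0453). Both paralogues of Timm17 were therefore lower by similar amounts, and no test of their difference was run. Timm23 itself went from -0.28, -0.36 and -0.3 to -0.64, -0.37 and -0.54 (-0.20 ± 0.15), and Timm21 differed by -0.01 ± 0.16. Timm22 went from -0.08, -0.42 and -0.61 to -1.06, -1.11 and -1.05 (-0.70 ± 0.17, adjusted p = 0.0246), while its partner Timm29 was at 0.04 ± 0.17. In the motor, Grpel1 went from 0.11, 0.09 and 0 to -0.5, -0.39 and -0.48 (-0.52 ± 0.15, adjusted p = 0.0436). Timm44 went from -0.01, 0.09 and 0.03 to -0.38, -0.32 and -0.6 (-0.47 ± 0.15, adjusted p = 0.0731), and Pam16 differed by -0.50 ± 0.16 (adjusted p = 0.0721). Both had no overlap between states, like 30.9% of all genes, and were not called. Hspa9, with 0.07, -0.07 and -0.03 in ESC and 0.15, 0.28 and 0.18 in EB, was not called in the other direction.

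At the outer membrane, Tomm7 went from -1.26, -0.77 and -1.13 to -1.87, -1.65 and -1.48 (-0.62 ± 0.18, adjusted p = 0.0484). Tomm22 went from -0.81, -0.78 and -0.75 to -1.73, -1.06 and -1.4 (-0.62 ± 0.18), just short of the threshold at an adjusted p of 0.0526. Tomm70a and Tomm34 had positive values that were not called: Tomm70a went from 0.14, 0.08 and 0.15 to 0.33, 0.55 and 0.56 (0.36 ± 0.15, adjusted p = 0.152), and Tomm34 from 0.07, 0.11 and 0.01 to 0.51, 0.37 and 0.33 (0.34 ± 0.15, adjusted p = 0.169). Neither overlapped between states, where 30.9% of all genes had no overlap. Tomm40 differed by -0.43 ± 0.16, Tomm20, with -0.13, 0.05 and -0.15 in ESC and -0.09, -0.07 and 0.13 in EB, by 0.06 ± 0.15 and Samm50 by -0.10 ± 0.17, none called. The count of 11 was sensitive to the cultures and the scaling: it fell to 1 without ESC replicate 2 (Timm8b), to 2 without EB replicate 1, to 3 without ESC replicate 1, to 6 without ESC replicate 3 or EB replicate 2, and to 8 without EB replicate 3, and median centring in place of quantile normalization called 5 lower (Timm8a2, Timm8b, Tomm20l, Timm10b and Timm22) and 3 higher (Tomm70a 0.79, Tomm34 0.68 and Hspa9 0.64). Under median centring 21.1% of all genes were called lower and 15.3% higher, so the import genes did not stand above the background there, and their median was -0.11. The 11 differences stayed below 0 under each of these settings, but 7 of them lost their call under median centring and were smaller: -0.34 for Timm17a and Timm17b, -0.30 for Timm13, -0.27 for Timm50, -0.18 for Tomm7, -0.16 for Grpel1 and -0.11 for Timm8a1. The replicate block left 9 lower, against 5.25% of all genes. The offset and the filter mattered too. Offset 16 left 3 lower, against 3.14% of all genes, and without the filter on low values 5 were lower, among 527 genes called lower in all.

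**Figure D3:**
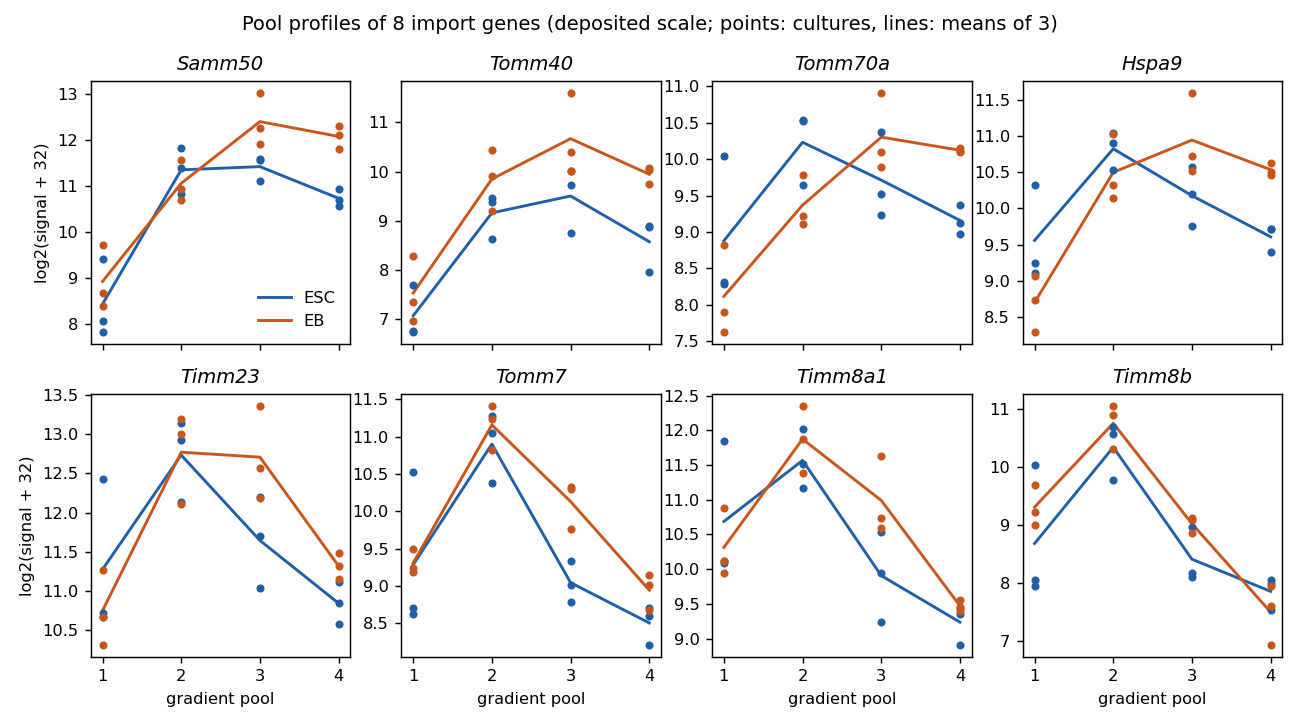
Level of 8 import genes in gradient pools 1 to 4 on the deposited scale, as log2(signal + 32); points are cultures and lines join the means of 3 (ESC blue, EB orange). By the means, in ESC Samm50 and Tomm40 are highest in pool 3 and the other genes in pool 2. In EB the means of Timm8b, Timm8a1 and Tomm7 are still highest in pool 2. The EB mean of Timm23 is too, but 2 of its 3 EB cultures are highest in pool 3.

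Single pools hold the same arrays as the ratio and show where it differed. Of the 11 genes with a lower relative ratio, 8 were called lower in pool 4 and 8 higher in pool 1. In pool 4, 15 of the 28 import genes were lower in EB relative to all genes and none higher (at an unadjusted p under 0.05, 15 and 0), against 14.5% and 15.4% of all genes, with a median of -0.36. They were 5 small TIMs, 4 TIM23 genes, 3 motor genes, Timm22, Timm29 and Tomm7. Timm8b read 8.38, 8.63 and 8.51 in ESC pool 4 and 6.4, 7.47 and 7.07 in EB pool 4, a difference of -1.53 ± 0.24 (limma adjusted p = 0.00183). Timm8a1 read 9.82, 9.92 and 9.86 against 8.67, 8.85 and 8.92 (-1.05 ± 0.10, adjusted p = 0.000208), and Timm23 read 11.56, 11.37 and 11.42 against 10.57, 10.66 and 10.8 (-0.77 ± 0.10, adjusted p = 0.000887). None of these overlapped between states, the pattern of 18 of the 28 genes and 43.3% of all genes in pool 4. The number was lowest, 8, without ESC replicate 2. Median centring called 9 lower and 3 higher, against 38.0% and 21.8% of all genes. Deposited values in pool 4 were higher in EB for 23 of 28, against 75.4% of all genes, and for none after rescaling on the hybridisation controls, against 1.84%.

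In pool 1, 9 genes were higher and 4 lower in EB relative to all genes, against 6.22% and 6.48% of all genes. Grpel1 read 7.57, 7.23 and 7.1 in ESC and 8.9, 8.48 and 8.63 in EB (1.37 ± 0.17, limma adjusted p = 0.00691), and Timm50 read 6.99, 7.12 and 6.88 against 8.14, 8.13 and 8.18 (1.15 ± 0.09, adjusted p = 0.00279). Higher too were Timm13, Timm17a, Timm8b, Timm8a2, Timm10b, Samm50 and Timm22, by 0.53 to 0.85. The 4 lower genes were Hspa9 (-0.77), Tomm70a (-0.67), Timm29 (-0.59) and Timm23 (-0.45). With the replicate number as a block, which the pool 1 and pool 2 arrays call for, 4 were higher and 2 lower in pool 1, against 3.36% and 3.18% of all genes. Without ESC replicate 1, 2 and 3, 5, 3 and 2 were higher, among 419, 356 and 385 genes called higher in all. Without ESC replicate 1, 2 and 3 and EB replicate 2 and 3, 2, 0, 1, 2 and 1 were lower, among 422, 336, 384, 528 and 507 genes called lower in all. Median centring called 2 higher and 2 lower, against 2.11% and 4.14% of all genes. None of the 28 was called in pool 1 on the deposited scale (2 higher and 0 lower at an unadjusted p under 0.05), and no gene of the 13250 was.

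Relative to all genes, fewer import genes were called in pools 2 and 3 than in pools 1 and 4. In pool 2, Grpel1 was higher (0.71 ± 0.18) and Tomm70a lower relative to all genes, against 3.33% and 3.71% of all genes, and with the replicate block none was higher and 1 lower. Grpel1 was not called when any culture was left out, and no gene was called lower without ESC replicate 1, 2 or 3. Tomm70a read 10.31, 10.26 and 10.53 in ESC pool 2 and 9.12, 9.42 and 9.06 in EB pool 2 (-1.17 ± 0.20, limma adjusted p = 0.0112). Deposited values gave no call in pool 2, against 2.1% of all genes higher and 0.325% lower (4 higher and 1 lower at an unadjusted p under 0.05). With the replicate block 5 were called higher and 1 lower, against 15.3% and 1.36% of all genes. Without EB replicate 2, 3 were called higher, among 1748 genes called higher in all. In pool 3, Grpel1 was higher by 0.73 ± 0.12 and Tomm70a (-0.70 ± 0.14) and Hspa9 (-0.51 ± 0.12) were lower, against 11.6% and 11.3% of all genes; 2 were higher without EB replicate 1 and 1 lower without EB replicate 3. Deposited values of 22 of 28 were higher in pool 3, against 54.9% of all genes higher and 0.083% lower, and this count was 9 without ESC replicate 2, 14 without ESC replicate 3 and 0 after rescaling on the hybridisation controls, against 2.03% of all genes.

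**Figure D4:**
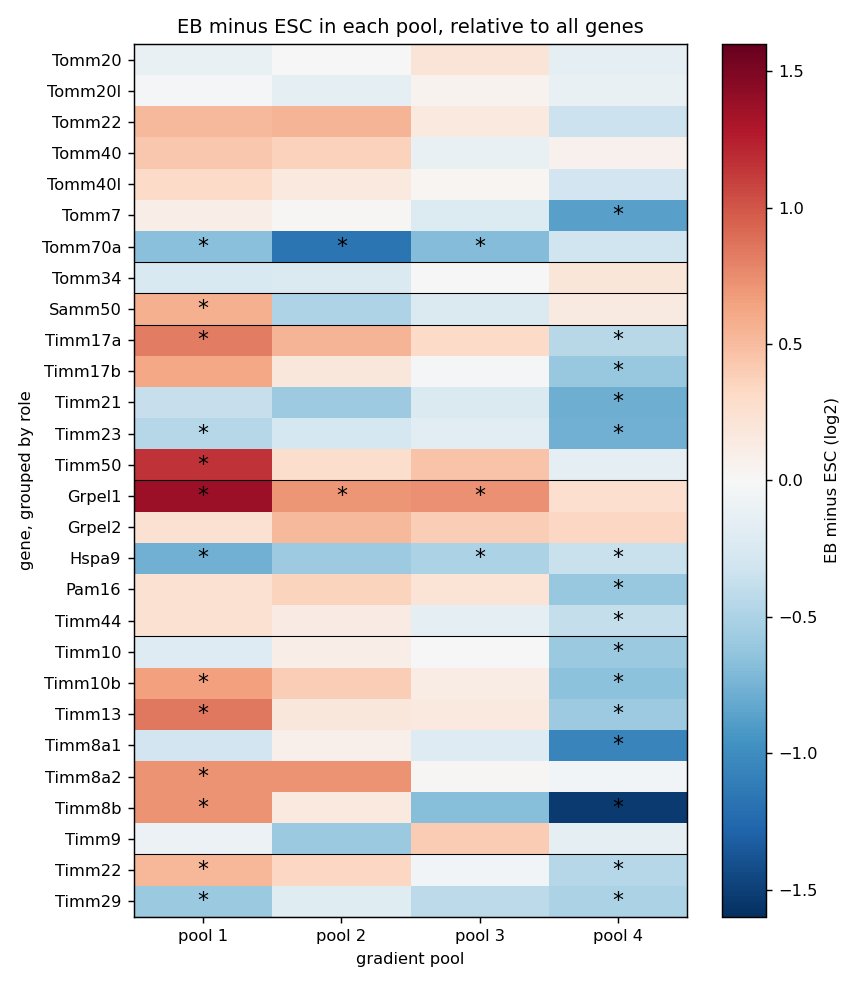
EB minus ESC relative to all genes (log2) for each import gene in gradient pools 1 to 4, with blue lower and red higher in EB; asterisks mark limma adjusted p under 0.05 without a replicate block. Pool 4 has 15 asterisks, all on lower values, and pool 1 has 9 on higher and 4 on lower values.

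Within a culture, the pool with the highest signal was taken as the peak on the deposited scale where at least 2 of 3 cultures had the same one. In ESC 25 of the 28 genes peaked in pool 2, as 71.7% of all genes did, and Samm50 and Tomm40 in pool 3; Timm29 had no such peak. In EB 15 peaked in pool 2 and 13 in pool 3, where 22.1% and 48.2% of all genes did. Of the small TIMs 7 of 7 peaked in pool 2 in ESC and 6 of 7 in EB, with Timm9 moving to pool 3. After quantile normalization the small TIMs peaked in pool 2 for 5 of 7 in ESC and 3 of 7 in EB, against 17.3% and 20.4% of all genes. In EB 3 of them peaked in pool 1 and none in pool 3, against 24.3% and 13.9% of all genes. The signal-weighted mean pool number (each pool's number weighted by its linear signal) had a median of 2.32 over the 28 genes in ESC and 2.54 in EB, beside 2.44 and 2.76 over all genes. It was higher in EB for 26 of 28, the exceptions being Timm8b and Timm8a2. Samm50 had the highest value in EB, with 2.99, 3.15 and 3.2 in the EB cultures and 2.71, 2.96 and 2.69 in ESC. Timm8b had 1.97, 2.32 and 2.16 in ESC and 1.97, 2.16 and 2.08 in EB, with 57.7% ± 10.9 (SD, n = 3) of its summed pool signal in pool 2 in ESC and 57.4% ± 5.37 in EB. Timm9 went from 2.17, 2.36 and 2.22 to 2.56, 2.79 and 2.67. Its peak and this value rest on the probe set used, and its other probe set had a pool-ratio difference of the opposite sign relative to all genes. Values did not overlap between states in 13 of 28 genes (46.4%), against 58.3% of all genes, and with 3 cultures against 3 an exact permutation test cannot give a p below 0.1.

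Other genes of the import pathway, from a list outside the rule, were measured for 24 of 25. Their pool ratio EB minus ESC had a median of -0.15 relative to all genes. Of the 24, 6 were called lower and none higher, against 5.15% and 4.18% of all genes. The 6 were Dnajc15, a motor cochaperone (-0.86 ± 0.15), Romo1, an inner-membrane protein linked to TIM23 (-0.85 ± 0.15), Dnlz, a chaperone of Hspa9 (-0.80 ± 0.16), Immp1l, an inner-membrane peptidase subunit (-0.77 ± 0.16), Oxa1l, the insertase for proteins made inside mitochondria (-0.68 ± 0.16), and Apool, a cristae-organising protein (-0.62 ± 0.17). In total RNA, Pmpca, a subunit of the presequence peptidase, was higher relative to all genes (0.45 ± 0.10), and Chchd3, Dnajc15, Chchd6 and Immt, of which Chchd3, Chchd6 and Immt belong to the cristae-organising MICOS complex, were lower, by 0.46 to 0.55. Of all genes, 6.55% were called higher and 6.11% lower in that comparison. Mitochondrial ribosomal protein genes are another group of nuclear genes for mitochondria. In the pool ratio EB minus ESC relative to all genes, 31 of these 76 were called lower and 1 higher, against 5.15% and 4.18% of all genes. Their median was -0.49. The import genes, at -0.45, had a like median. Among 4 regulators of such genes, Gabpa, the DNA-binding subunit of GABP, was higher in EB total RNA relative to all genes (0.52 ± 0.11, limma adjusted p = 0.0273), and Nrf1 (0.25 ± 0.15), Esrra and Ppargc1b were not called.

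Of the 28 genes, 16 had several probe sets, with 30 beside those used. The pool ratio EB minus ESC relative to all genes had the same sign in 24 of the 30, and total RNA in 23. The second probe set of Timm8a1 gave -0.91 ± 0.18 and that of Timm17b -1.09 ± 0.17, both larger decreases than in the probe set used. For Tomm70a another probe set gave 1.24 ± 0.21 (limma adjusted p = 0.00852 over all probe sets), above the threshold that the chosen one missed. For Timm9 the other, dimmer probe set gave -0.61 ± 0.15 (adjusted p = 0.0333), the opposite sign, so its positive value rests on 1 probe set. Timm8b, Timm13, Timm17a, Grpel1 and Timm8a2 had a single probe set. Timm8a1 and Timm8a2, Timm17a and Timm17b, Tomm20 and Tomm20l, and Tomm40 and Tomm40l are close homologues, and whether their probe sets share signal was not tested.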

How the data were processed

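Total RNA and 4 gradient pools from 3 ESC and 3 EB cultures were measured on 30 arrays with 45101 probe sets. The values were deposited by the authors as log2 signals; per the submitters' processing notes MAS5 and the affy package were used, with no version stated, and the genome build is not given in the sources used here. From these, log2(signal + 32) was taken, probe sets in the lowest 40% by mean were dropped, and the brightest remaining probe set stood for its gene, which left 13250 genes. Values relative to all genes were quantile-normalized over the arrays of a fit. Fits used limma 3.58.1 (lmFit and eBayes, R 4.3.3), two-sided, with Benjamini-Hochberg adjustment over all 13250 genes and a threshold of 0.05, and all adjusted p-values in the text come from it; the method was tested on simulated data. P-values measure the spread between the 3 cultures of a state, which the labels call biological replicates. In the pool-ratio fits on the deposited scale that spread was pooled over all genes. The number of arrays limits the precision.

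Members and lists were chosen with earlier results of these data known. Values in every culture are given for core genes of each complex, the 3 highest and 3 lowest in total RNA, in pool-ratio change and in each state's pool ratio, and every gene called relative to all genes in total RNA or pool-ratio change; pool values of other genes were picked after they were seen. Same-numbered arrays deviated together in pool 1 (correlations of deviations 0.54, 0.32 and 0.34) and pool 2 (0.34, 0.14 and 0.14). The block is given for these pools. Pool 3 had 0.45, 0.36 and 0.1, and was left out because not all 3 exceeded 0.1. With the block, pool 3 had 1 import gene higher and 3 lower relative to all genes. The pool ratio had 0.24, 0.11 and 0.05, and its main fits have no block. Same-numbered ESC and EB pool arrays also shared a floor, at 3.8, 2.93 and 3.35 (log2) for replicates 1, 2 and 3. The pairing rests on the labels' replicate numbers and these checks. Alternatives were the offset, the filter, the mean of probe sets, an intensity trend, the scaling, the replicate block and leaving out each culture. Protein sequences were not used here.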

Additional observations from a re-analysis of the deposited data

Results flagged for a closer look

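For 11 import genes the contrast of pools 3 and 4 against pools 1 and 2 differed between EB and ESC by a test of the difference itself, relative to all genes (limma, Benjamini-Hochberg adjusted over 13250 genes), where 5.15% of all genes were called lower. Among the small TIMs, which chaperone precursors across the intermembrane space, the EB minus ESC difference in log2 pool ratio was -1.52 for Timm8b, -0.93 for Timm8a2, -0.8 for Timm10b, -0.74 for Timm13 and -0.55 for Timm8a1. In the TIM23 complex it was -0.74 for Timm17a, -0.71 for Timm17b and -0.61 for Timm50. The carrier channel Timm22 was at -0.7, the TOM subunit Tomm7 at -0.62 and the motor factor Grpel1 at -0.52. In each of these genes all 3 EB ratios lay below all 3 ESC ratios, where 30.9% of all genes had no overlap in either direction. Timm8b was called in each fit that left out 1 culture, and the other 10 were lost in at least 1 such fit. Of the 28 import genes, median centring called 5 lower, against 21.1% of all genes, and an offset of 16 called 3, against 3.14%. Without the filter on low values 5 were called, among 527 genes called lower in all. Of the 11, 2 (Timm8b and Timm10b) were called in every setting relative to all genes other than leaving out a culture. The direction depended on the scale. On the deposited scale 4 of the 11 were called higher and 7 were not called. With deposited values rescaled on the hybridisation controls, no gene was called.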

How the results depend on the processing

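Leaving out a culture moved 36 of 192 counts of called import genes by over 1.5 times, and other alternatives moved 42 of 232. Of 2912 single-gene values 101 changed sign, 44 of them on rescaling to the hybridisation controls and 13 on median centring; 31 were of values called before or after the change, and these are all given below. The causes were not tested. Rescaling the arrays on the hybridisation controls left 4 genes higher in total RNA on the deposited scale (17.5% of all genes) and 0 higher in the pool-ratio difference (none of all genes). It left 9 higher and 0 lower in the ESC ratio (50.8% and 0.174%), 2 lower in the EB ratio (0.808%), and 0 higher in pools 3 and 4 (2.03% and 1.84%). It turned total RNA to -0.045 for Timm21, -0.042 for Timm8a1, -0.097 for Timm9 and -0.155 for Tomm7, and the pool-ratio difference to -0.024 for Grpel1, -0.116 for Timm50, -0.081 for Tomm22, -0.006 for Tomm40 and -0.045 for Tomm7; uncalled values turned too, to -0.336 for Timm10b, -0.296 for Timm22, -0.22 for Timm17a, -0.203 for Timm17b, -0.158 for Timm13 and -0.072 for Tomm20l. It turned the ESC ratio to 0.952 for Grpel1, 0.348 for Grpel2, 0.799 for Hspa9, 0.13 for Pam16, 0.515 for Timm10, 0.28 for Timm10b, 0.047 for Timm13, 0.46 for Timm17a, 0.478 for Timm17b, 0.115 for Timm21, 0.475 for Timm22, 0.356 for Timm23, 0.894 for Timm44, 0.661 for Timm50, 0.041 for Timm9, 0.272 for Tomm20, 0.056 for Tomm22, 0.976 for Tomm34, 0.295 for Tomm40l and 0.976 for Tomm70a, and the uncalled ones to 0.149 for Timm8a2 and 0.112 for Tomm20l; 6 uncalled EB ratios turned too. Called values relative to all genes changed sign for Tomm20l in the pool-ratio difference (-0.665, median centring, called there) and for Timm44 in the EB ratio (0.042, mean of probe sets). Median centring also turned uncalled pool-ratio differences of Samm50 (0.26), Timm10 (0.156), Timm21 (0.105), Timm23 (0.208) and Grpel2 (0.299), and total RNA differences of Grpel2, Timm10b, Timm22, Timm44 and Tomm34 (0.1 to 0.142).

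The number called among all genes under the same setting is in brackets, out of 13250, or more where no filter was used. Relative to all genes, median centring gave 4 (1667) higher and 2 (2756) lower in total RNA, and 3 (2033) higher and 5 (2800) lower in the pool-ratio difference. That centring gave 2 (280) higher and 2 (549) lower in pool 1, and 0 (200) higher in pool 2. In pool 3 it gave 2 (1519) higher, and in pool 4 it gave 3 (2887) higher and 9 (5030) lower. An intensity trend gave 2 (1494) higher and 8 (1394) lower in total RNA, 3 (752) higher and 2 (822) lower in pool 2 and 3 (1677) higher in pool 3. The mean of probe sets gave 1 (788) higher and 2 (730) lower in total RNA, and 1 (667) higher in the pool-ratio difference. It also gave 2 (749) lower in pool 1 and 2 (1545) higher in pool 3, and 1 (506) higher in pool 2 on the deposited scale. An offset of 64 gave 4 (1054) lower in total RNA, 2 (754) lower in pool 2 and 2 (1677) higher in pool 3. An offset of 16 gave 3 (416) lower in the pool-ratio difference and 0 (279) higher in pool 2. Without a filter 5 (527) were lower in the pool-ratio difference, and 13 (5180) higher in pool 3 on the deposited scale. Scaling to a common median gave 3 (895) lower in total RNA and 3 (1631) higher in pool 3. The replicate block gave 4 (445) higher and 2 (421) lower in pool 1 and 0 (349) higher in pool 2. On the deposited scale it gave 5 (2031) higher and 1 (180) lower in pool 2. It moved no other count by over 1.5 times. Same-numbered total RNA arrays did not deviate together (correlations 0.02, 0.03 and 0.04).

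Leaving out each culture gave, on the deposited scale, 25 to 27 higher in total RNA, 13 to 22 higher and 0 to 1 lower in the pool-ratio difference, 11 to 17 lower in the ESC ratio, 6 to 11 higher and 4 to 7 lower in the EB ratio, 0 to 3 higher in pool 2, 9 to 24 higher in pool 3, and 19 to 23 higher and 0 to 1 lower in pool 4. Relative to all genes it gave 0 to 1 lower in total RNA, 1 to 8 lower in the pool-ratio difference, 9 to 15 lower in the ESC ratio, 3 to 4 higher and 18 to 19 lower in the EB ratio, 2 to 7 higher and 0 to 3 lower in pool 1, 0 higher and 0 to 1 lower in pool 2, 1 to 2 higher and 1 to 3 lower in pool 3, and 0 to 1 higher and 8 to 14 lower in pool 4. The number of all genes called changed as well. Without ESC replicate 2, 198 genes were lower in the pool-ratio difference relative to all genes, against 682 with all cultures. In pool 4, 1355 genes were lower relative to all genes, against 1927. In pool 3 on the deposited scale, 3302 were higher, against 7270. Signal near the floor limits Timm8a2 and Tomm20l.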
